A study of Homo sapiens with 18 samples.

Results

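The comparison described here was that of MDA-MB-231 cells carrying an inducible FLAG-ZMYND8 cDNA with the same cells carrying an inducible GFP cDNA, both without doxorubicin. Its members were chosen by their labels alone: 2 GFP and 2 ZMYND8 libraries, 4 of the 18 samples of the series. MDA-MB-231 is a human breast cancer cell line of the basal-like, mesenchymal kind. Both lines carried the same vector, pInducer20, a lentivirus whose cargo answers to doxycycline, had been selected with G418, and received 250 ng/mL doxycycline. The other 8 libraries of the inducible lines had also received 0.6 µM doxorubicin, a DNA-damaging anthracycline used in chemotherapy, for 6 or 48 h, with doxycycline given 4 h before it. How long doxycycline acted in the libraries without doxorubicin is not given in the sources used here. Each cDNA was represented by 1 stable line, so the cDNA and the line that carried it cannot be told apart, at any time point. The labels number the 2 libraries of a group as replicates, and a figure legend of the study calls them biological replicates. Every p-value below rests on the spread between such pairs of libraries.

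ZMYND8 is a reader of histone marks. Its PHD finger, bromodomain and PWWP domain bind modified histone tails, its MYND domain binds partner proteins, and it is known to bring corepressors such as the NuRD complex and H3K4 demethylases of the KDM5 family to chromatin. It has been described both as a silencer of genes at promoters and enhancers and as a partner of factors that switch genes on, among them the HIF factors. The question put to these libraries was what ZMYND8 alone does to the transcriptome before any drug is given.

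Poly(A) RNA was sequenced and reads were counted per gene. The 4 libraries held 20864386 and 20053500 counts (GFP) and 18300628 and 23724398 counts (ZMYND8), within the range of the 12 inducible libraries. Levels are given below as CPM, counts scaled to a common library total with TMM factors, which compare a gene between libraries and not 1 gene with another, since they are not divided by length. Differences are log2 ratios of ZMYND8 over GFP from a fit to all 12 inducible libraries. A gene is said to have risen or fallen where its adjusted p was at most 0.05, and is said to have been called where, in addition, it differed by at least 1.5 on the log2 scale. In bulk RNA, more cells of a kind and more RNA per cell cannot be told apart.

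The markers of the line were present in both groups. VIM, which encodes the filament protein vimentin, was at 4490 and 4464 CPM with GFP and at 3825 and 4171 CPM with ZMYND8. CD44, a hyaluronan receptor, was at 1237 and 1251 CPM with GFP and at 641 and 678 CPM with ZMYND8. PGR, the progesterone receptor gene of luminal breast cells, was listed at 0 in all 4 libraries. Of 14 markers of leukocytes, endothelial cells and fibroblasts, 9 could be tested, 6 fell and 0 rose, and their summed level was 44 and 40.4 CPM with GFP against 14.8 and 12.1 CPM with ZMYND8. Most of that sum came from CD14, a monocyte receptor (19.8 and 18.3 CPM against 2.34 and 2.01 CPM), and from COL1A1 (15.2 and 12.9 CPM against 9.04 and 7.83 CPM). The part of other cell types in the results was not tested.

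ZMYND8 itself stood at 209 and 208 CPM in the GFP libraries and at 921 and 926 CPM in the ZMYND8 libraries. Both ZMYND8 libraries lay far above both GFP libraries, and the labels held. The difference was 2.15 on the log2 scale (SE 0.0458, adjusted p = 1.16e-23), and it was 3.16 after 6 h and 2.79 after 48 h of doxorubicin. The counts do not separate the introduced cDNA from the cell's own gene. The gene lies on chromosome 20 from 47209214 to 47356889 (GRCh38, minus strand). In the control libraries of the transient overexpression experiment, which come from the same cell line but stand in a separate table with no test between the tables, it was at 196 and 193 CPM, near the GFP line.

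Of 18801 genes tested, 5401 (28.7%) rose and 5553 (29.5%) fell. The larger changes were more often falls: 736 genes (3.91%) were called higher and 1292 (6.87%) were called lower. The counts of gene lists below are to be read beside these shares of all genes tested. The spread between paired libraries was small, with a biological coefficient of variation of 3.69%, so that small differences passed the test. Among the called genes, 732 of 736 higher and 1282 of 1292 lower genes did not overlap between the 2 groups. The calls were made in these same libraries, so the lack of overlap is no separate evidence. The share of all genes tested that did not overlap is not given here. With 2 libraries per group, genes that did not pass the test can also stand apart, as NOTCH1 does below. Many were low in the lower group: 419 of the genes called higher and 624 of those called lower summed to at most 10 counts there. A level of at least 1 CPM in the higher group was reached by 418 genes called higher and 894 called lower. The median log2 difference of the called genes was 2.24 upward and -2.31 downward.

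**Figure D1:**
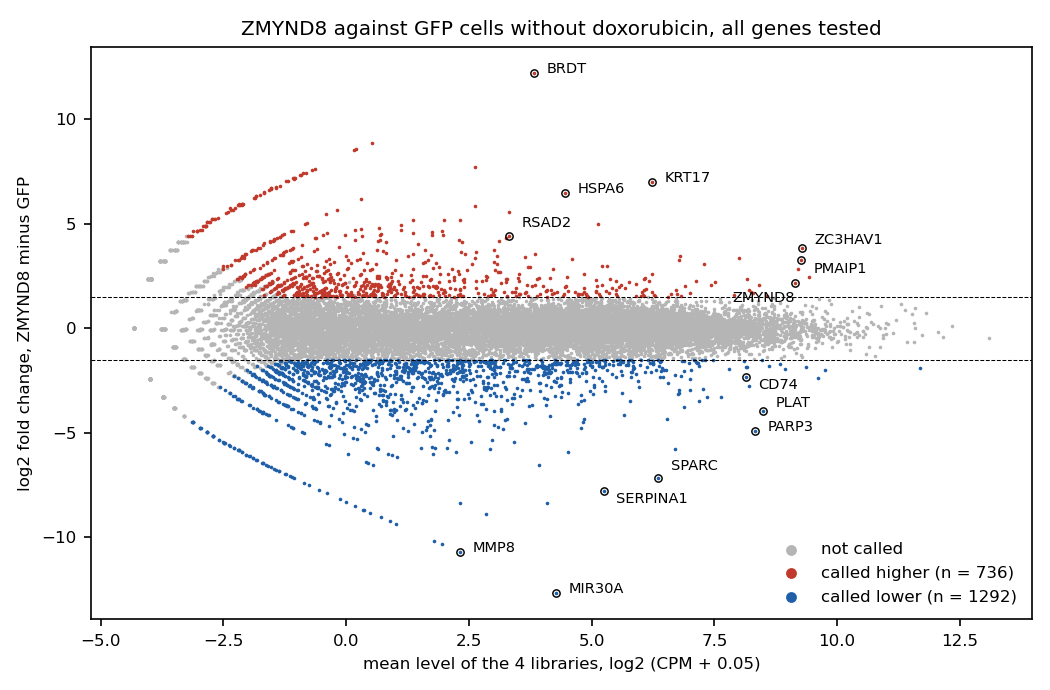
Each point is 1 of 18801 genes tested, with its mean level (log2 CPM) on the horizontal axis and its log2 difference, ZMYND8 minus GFP without doxorubicin, on the vertical axis. Colours mark the 736 genes called higher and the 1292 called lower, and the cloud of the other genes is centred near 0.

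The genes with the largest rises were close to silent in the GFP line. BRDT, the testis-specific member of the BET family of bromodomain proteins, was at 0 in both GFP libraries and at 29.1 and 27.3 CPM in the ZMYND8 libraries, which is at least 182-fold higher when 3 counts per library are set as the floor. MYO1G, an unconventional myosin of blood cells, went from 0 and 0.105 CPM to 11.4 and 12.9 CPM, a count ratio of 236 (95% counting interval 65.1 to 1957, which covers counting error only). KRT17, a keratin of basal and stressed epithelium, went from 1.52 and 0.843 CPM to 148 and 151 CPM (log2 difference 6.97, SE 0.109). In each of these genes both ZMYND8 libraries lay well above both GFP libraries. HSPA6, a heat shock protein that is silent in most unstressed cells, was at 0.557 and 0.421 CPM with GFP and at 44 and 42.9 CPM with ZMYND8 (6.45). KRT17 and HSPA6 have near-identical copies in the genome, so their counts are uncertain to that extent. The long non-coding RNA UCA1, known from bladder cancer, was at 2.84 and 1.48 CPM against 67.1 and 68.6 CPM (4.96). The others of the 10 largest rises were AMPH (5.83), a protein of endocytosis, FSTL5 (5.54), ABCC9 (5.18), a subunit of potassium channels, GBP5 (5.18), an interferon-induced GTPase, and SLC4A4 (4.67), a bicarbonate transporter.

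The genes with the largest falls included several that went from clear levels in the GFP line to 0 or nearly 0. MMP8, the neutrophil collagenase, was at 9.47 and 10.2 CPM with GFP and at 0 in both ZMYND8 libraries, at least 66.0-fold lower. NTN1, the guidance cue netrin-1, was at 7.85 and 7.53 CPM and then at 0, at least 51.5-fold lower. POU2F2-AS2, an antisense RNA counted on its own strand, was at 6.13 and 7.59 CPM and then at 0, at least 45.9-fold lower. None of these 3 genes had a single count in the ZMYND8 line. NYNRIN was at 14.4 and 14.1 CPM against 0 and 0.0437 CPM, a count ratio of 583 (95% counting interval 104 to 23051). NTM, a neural adhesion molecule, was at 9.82 and 9.91 CPM against 0.0558 and 0 CPM, a ratio of 402 (71.8 to 15936). SPARC, the matrix glycoprotein osteonectin, was at 161 and 165 CPM against 1.56 and 0.787 CPM (log2 difference -7.17, SE 0.114). The serpins SERPINA5 and SERPINA1, which inhibit extracellular proteases, went from 33.7 and 34.5 CPM to 0.112 and 0.0874 CPM (-8.36), and from 79.5 and 71.5 CPM to 0.112 and 0.525 CPM (-7.76). ADGRF1, an adhesion receptor, went from 30.6 and 29.4 CPM to 0.279 and 0.350 CPM (-6.53). For every gene of this group the groups did not overlap, which the choice of these genes required.

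**Figure D2:**
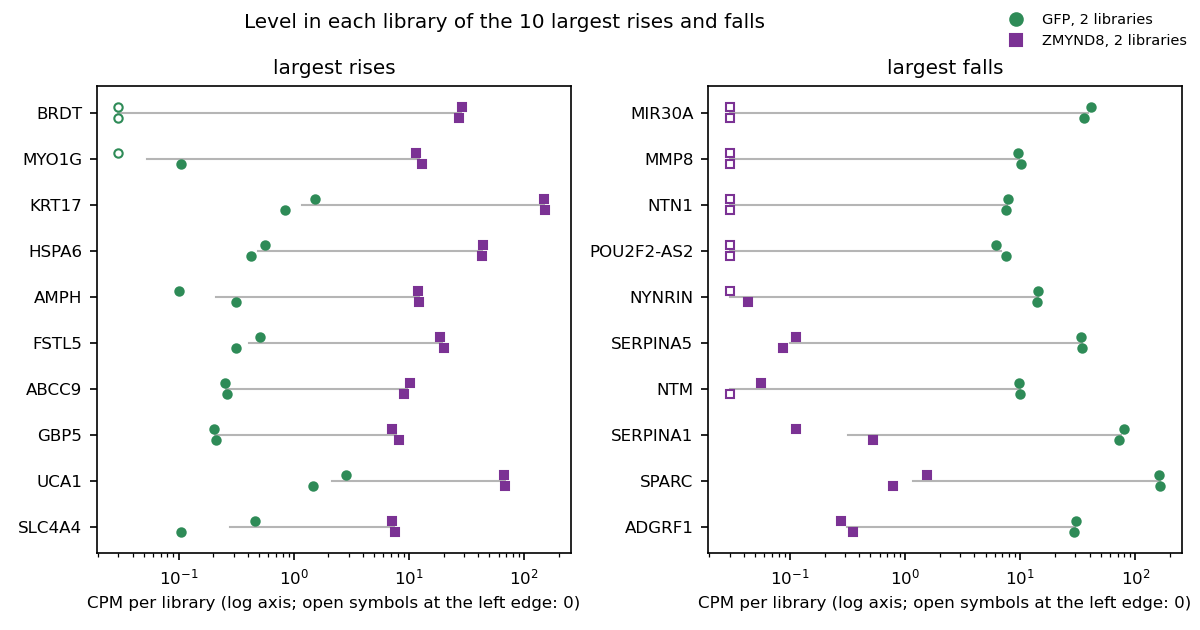
Level in CPM (horizontal log axis) of the 10 genes with the largest rises (left) and the 10 with the largest falls (right), 1 point per library, GFP as circles and ZMYND8 as squares, without doxorubicin; open symbols at the left edge are libraries at 0, and grey lines join the group means. In every gene shown, the 2 ZMYND8 points lie on 1 side of the 2 GFP points, which the choice of these genes required.

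Another of these falls was in MIR30A, the gene of the miR-30a hairpin, at 41.5 and 35.8 CPM with GFP and at 0 in both ZMYND8 libraries, at least 259-fold lower. Its 2 mature microRNAs are shown because a microRNA acts through its seed, bases 2 to 8, given in capitals (RefSeq, hairpin at chr6:71403551-71403621 on the minus strand of GRCh38.p14).
hsa-miR-30a-5p: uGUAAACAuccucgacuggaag
hsa-miR-30a-3p: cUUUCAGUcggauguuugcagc
The libraries were made from poly(A) RNA, so the counts over the 71 bases of the hairpin do not measure the mature microRNA. Which RNA these reads came from, and whether it was made at this place in the genome, was not tested. LINC00472, a long non-coding RNA on the same strand whose annotated span holds the hairpin, was looked at after its values were seen: it was at 35.5 and 31.3 CPM with GFP and at 31.4 and 28.6 CPM with ZMYND8 (-0.16, SE 0.0872, adjusted p = 0.115). Of the 2 lines, only the GFP line thus had counts over the hairpin, while the difference of the RNA that spans it did not pass the test. MIR30A had no count in the control libraries of the transient experiment either.

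The 8 largest gains in CPM included ZMYND8 itself, the chaperone HSPH1 described below, and the 6 genes that follow. ZC3HAV1, the zinc finger antiviral protein, was at 83.2 and 81.2 CPM with GFP and at 1176 and 1150 CPM with ZMYND8 (3.82). PMAIP1, the BH3-only death factor NOXA, was at 118 and 117 CPM against 1117 and 1119 CPM (3.25). IFIT3 was at 211 and 211 CPM against 1160 and 1176 CPM (2.47), and its neighbours in the IFIT cluster of interferon-induced RNA-binding proteins rose with it. IFIT2 was at 142 and 148 CPM against 999 and 1054 CPM (2.83). IFIT1 was at 96.2 and 94.5 CPM against 477 and 485 CPM (2.33). OASL, an interferon-induced relative of the oligoadenylate synthetases, was at 45.5 and 44.4 CPM against 454 and 475 CPM (3.37).

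Losses in reads fell on several genes with high counts in the GFP line. TGM2, transglutaminase 2, was at 1308 and 1319 CPM against 245 and 266 CPM (-2.36). PRNP, the prion protein gene, was at 1371 and 1387 CPM against 347 and 349 CPM (-1.98). THBS1, the matrix protein thrombospondin 1, was at 1077 and 1005 CPM against 276 and 293 CPM (-1.87). PARP3, a poly(ADP-ribose) polymerase of break repair, was at 609 and 633 CPM against 20.9 and 20.5 CPM (-4.91), with 45.2 and 40.3 CPM in the control libraries. PLAT, the tissue plasminogen activator, was at 672 and 688 CPM against 43.7 and 42.7 CPM (-3.98). TGFBR2, the TGF-β type II receptor, and PXDN, a peroxidase that crosslinks collagen IV, fell by 1.94 and 1.72 on the log2 scale.

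Genes whose products work with ZMYND8 on chromatin changed by less than the called size. Of 34 such partners, all tested, 18 rose and 6 fell, and 0 were called in either direction, with a median of 0.14 against 0.00 over all genes tested. KDM6A, an H3K27 demethylase, was at 37.2 and 35.5 CPM with GFP and at 78.5 and 78.4 CPM with ZMYND8 (1.11). ZNF532, a zinc finger partner, was at 60.7 and 58.5 CPM against 21.2 and 24.0 CPM (-1.39), and the NuRD subunits MTA3 (-1.23) and CDK2AP1 (-0.99) fell too. Among the BET genes, BRD2 (-0.45) and BRD3 (-0.26) fell by less than 2-fold, in contrast to the rise of BRDT described above.

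Interferon-induced genes are switched on through ISGF3 and IRF factors, which bind an element whose core reads GAAA, any pair of bases, GAAA. This core was searched on both strands in windows from 250 bases before to 50 after each RefSeq start (GRCh38.p14). The stretches that hold the matches, in capitals, are shown for 4 genes of the list, since 3 of them rose and the last fell.
IFIT3, chr10:89327801-89327924: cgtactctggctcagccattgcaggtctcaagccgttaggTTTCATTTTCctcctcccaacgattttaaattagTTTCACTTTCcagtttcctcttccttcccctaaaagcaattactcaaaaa
IFIT1, chr10:89392467-89392569: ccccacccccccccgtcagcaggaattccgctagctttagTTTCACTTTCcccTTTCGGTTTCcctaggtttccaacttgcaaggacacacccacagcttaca
IFI44, chr1:78649731-78649820: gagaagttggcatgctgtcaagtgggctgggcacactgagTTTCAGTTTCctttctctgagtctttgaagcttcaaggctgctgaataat
IFITM1, chr11:313960-314083: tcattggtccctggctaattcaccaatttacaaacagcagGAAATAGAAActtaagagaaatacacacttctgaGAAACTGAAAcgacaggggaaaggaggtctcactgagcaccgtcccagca
All 4 stretches are given on the plus strand, so a core on the minus strand reads TTTC, any pair of bases, TTTC. In the windows of RSAD2, ZC3HAV1, PMAIP1 and CD74 these letters were not found.

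Of 43 interferon-response genes listed, 42 were tested, 23 rose and 13 fell, with 14 called higher and 2 called lower and a median of 0.48, which was 0.53 after 6 h and 0.25 after 48 h of doxorubicin. The list thus moved in both directions. IFI44 was at 20.5 and 20.7 CPM with GFP and at 197 and 198 CPM with ZMYND8 (3.26). RSAD2, the antiviral enzyme viperin, was at 1.01 and 0.738 CPM against 17.8 and 20 CPM (4.42). The 2 members called lower are named after their values were seen. IFITM1, which blocks virus entry, was at 56.7 and 58.5 CPM with GFP and at 8.98 and 8.57 CPM with ZMYND8 (-2.72, SE 0.0779). IFI27 was at 28.4 and 87.4 CPM against 14.2 and 17.1 CPM (-1.87, SE 0.356), with the 2 GFP libraries far apart. The core stood in the windows of 11 of 17 members that rose (64.7%) and of 8 of 11 that fell (72.7%), against 356 of 12577 tested genes with a window (2.83%). Among genes called higher that were not on the list, it was found in 17 windows of 387 (4.39%), and among genes called lower in 25 of 814 (3.07%). A match describes letters and not a bound site.

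Antigen presentation went the other way from the leading interferon genes. Of 23 MHC and antigen-processing genes listed, 11 were tested, 9 fell and 0 rose, with 4 called lower and a median of -0.99. CD74, the invariant chain of MHC class II, was at 456 and 484 CPM with GFP and at 85.5 and 101 CPM with ZMYND8 (-2.33). CIITA, the master regulator of class II genes, was at 31 and 31 CPM against 11 and 8.61 CPM (-1.67). PSMB10, a subunit of the immunoproteasome, was at 29.7 and 28.9 CPM against 10 and 9.27 CPM (-1.61). HLA-B, a class I heavy chain whose sequence is close to that of its relatives, was at 81.4 and 65.9 CPM against 25.2 and 24.8 CPM (-1.56). In all 4 genes the groups stood apart.

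**Figure D3:**
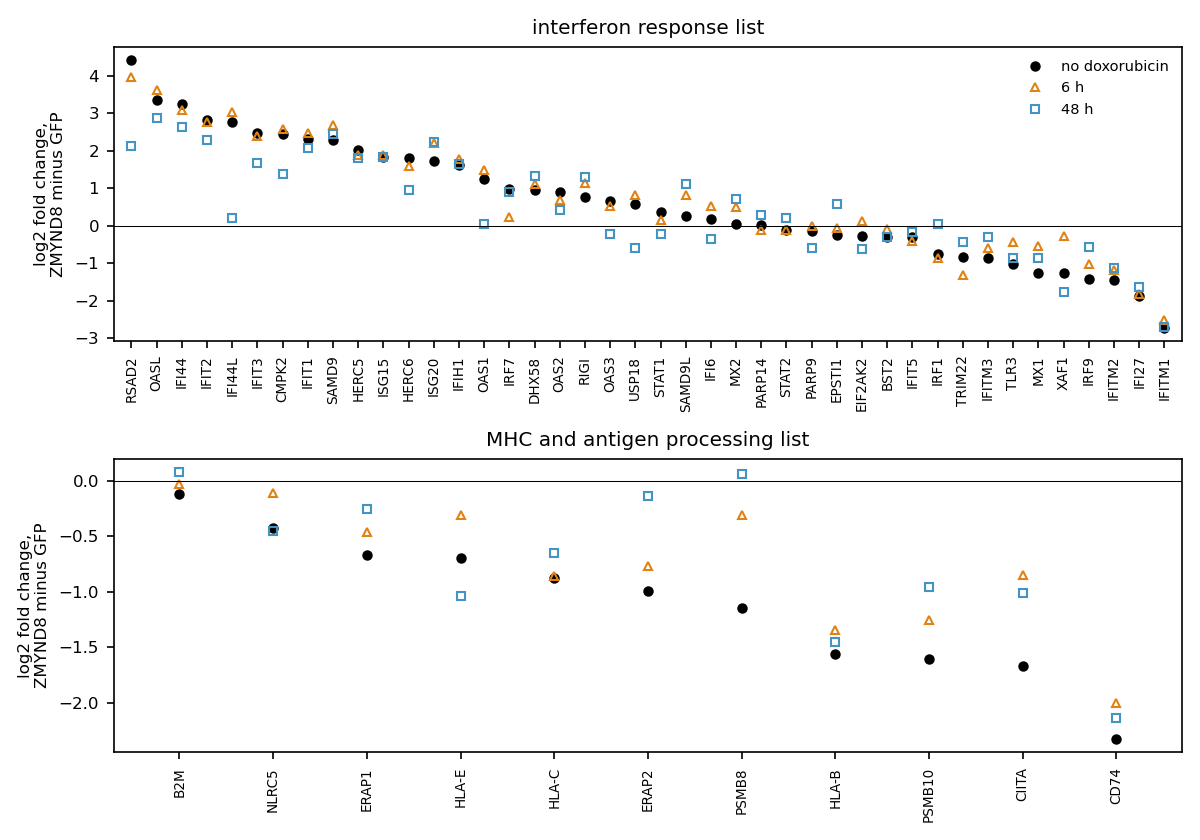
Log2 difference (ZMYND8 minus GFP, vertical axis) of the 42 tested members of the interferon-response list (top) and the 11 of the MHC and antigen-processing list (bottom), without doxorubicin (black) and after 6 h (triangles) and 48 h (squares) of it. Without doxorubicin, interferon genes lie on both sides of 0, from IFITM1 at -2.72 to RSAD2 at 4.42, and the 9 MHC genes that passed the test lie below 0.

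Cytokines and chemokines, which recruit leukocytes, were mostly lower. Of 32 tested, 21 fell and 6 rose, with 13 called lower and 2 called higher and a median of -1.13. CXCL8, the neutrophil attractant interleukin 8, was at 55.4 and 54.3 CPM with GFP and at 1.79 and 3.41 CPM with ZMYND8 (-4.35). CXCL1, which acts on the same receptor, was at 32.9 and 34.1 CPM against 1.84 and 1.84 CPM (-4.18). IL1B was at 15.7 and 17.4 CPM against 0.948 and 1.14 CPM (-3.97). These 3 inflammatory genes fell by more than 10-fold. CCL2, a monocyte attractant, was at 1.77 and 1.69 CPM with GFP and at 0 with ZMYND8, at least 11.6-fold lower. Of the 10 feedback genes of NF-κB, the factor that drives many cytokines, 8 fell and 0 rose. The 2 called higher are named after their values were seen. IL11, a cytokine of the interleukin 6 family, was at 20 and 17.3 CPM against 208 and 198 CPM (3.44), and CXCL11 was at 0.253 and 0.790 CPM against 2.90 and 2.84 CPM (2.46).

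Heat shock genes are switched on by HSF1, which binds repeats of GAA and TTC. The stretch upstream of HSPA6 is shown with its match to GAA, any pair of bases, TTC, any pair of bases, GAA in capitals (GRCh38.p14, plus strand, on which the match reads in reverse complement).
HSPA6, chr1:161524426-161524518: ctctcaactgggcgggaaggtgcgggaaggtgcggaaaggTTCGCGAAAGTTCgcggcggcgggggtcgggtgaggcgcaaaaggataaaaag
This motif was found in 46 of the 12577 windows of tested genes (0.366%), in 4 of 399 windows of genes called higher (1.0%), and in 2 of 21 windows of the stress and chaperone list (9.52%). The letters were not found in the windows of HSPH1 and DNAJB1.

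Of 13 heat shock genes listed, which did not include HSPA6, 10 were tested and all 10 rose, with a median of 0.97. HSPH1, a partner of HSP70 and the only one called, was at 135 and 129 CPM with GFP and at 537 and 564 CPM with ZMYND8 (2.06). DNAJB1, an HSP40 co-chaperone, was at 225 and 220 CPM against 599 and 625 CPM (1.46). HSPD1, the mitochondrial chaperonin, was at 433 and 445 CPM against 1133 and 1169 CPM (1.39). For all 3 the groups stood apart. Genes of the integrated stress response, which runs through ATF4, were more often lower: of 12 tested, 8 fell and 2 rose, with a median of -0.38. CHAC1, a glutathione-degrading enzyme of that response, was at 12.1 and 13.2 CPM against 5.30 and 3.89 CPM (-1.47).

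Immediate early genes encode transcription factors that answer growth signals within minutes. Of 19 tested, 15 rose and 2 fell, with 7 called higher and 0 called lower and a median of 0.79. FOS, a partner of JUN in AP-1, was at 1.27 and 1.90 CPM with GFP and at 14.6 and 14.1 CPM with ZMYND8 (3.18). EGR1 was at 21.1 and 20.9 CPM against 117 and 138 CPM (2.61). Its relative EGR2 was at 0.152 and 0.369 CPM against 2.73 and 1.92 CPM (3.12), and FOSB was at 0.709 and 0.580 CPM against 3.07 and 3.06 CPM (2.24). Of the 8 AP-1 genes, 7 rose and 0 fell.

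Cell division genes were modestly higher. Of 40 mitosis genes, 31 rose and 2 fell with a median of 0.38, and of 52 genes of DNA replication, 28 rose and 13 fell with a median of 0.28. No gene of either list was called. KIF23, a kinesin of cell cleavage, was at 82.3 and 80.2 CPM with GFP and at 173 and 180 CPM with ZMYND8 (1.12). POLA1, the catalytic subunit of polymerase α, was at 25.5 and 25.8 CPM against 58.4 and 61.5 CPM (1.22). MCM10, a loader of the replication fork, was at 18.9 and 21.4 CPM against 53.4 and 54.9 CPM (1.43). Among 14 cyclins and CDK inhibitors, 6 rose and 3 fell. CCNE1, which drives entry into S phase, rose by 1.04, and CCND2 was at 5.32 and 5.32 CPM against 0.725 and 1.01 CPM (-2.59). The medians were 0.28 for mitosis and 0.02 for replication after 6 h of doxorubicin, and -0.17 and -0.44 after 48 h.

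Of 20 genes that the study itself followed by name, 16 were tested, 9 rose and 4 fell, and 0 were called. The study drew its DNA damage genes from RNA-seq results, so their count is not independent evidence. All 5 of these rose, with a median of 0.67: besides MCM10 these were RFC3 (0.68), a clamp loader subunit, CDC25A (0.67), a cell cycle phosphatase, CLSPN (0.65), a checkpoint adaptor, and BRCA1 (0.49), a repair factor. Of the stemness genes, SOX9 was at 189 and 194 CPM against 106 and 120 CPM (-0.76), BMI1, a Polycomb subunit, rose by 0.34 and CD24 rose by 0.58, while CD44 fell by 0.91 on the log2 scale. NOTCH1 was at 76.8 and 72.7 CPM against 82.5 and 77.3 CPM (0.09, adjusted p = 0.265). Of the factors of epithelial to mesenchymal transition, SNAI2 was at 35.1 and 36.7 CPM against 85.3 and 90.3 CPM (1.29), ZEB1 was at 112 and 115 CPM against 87.5 and 89.5 CPM (-0.36), and VIM fell by 0.16. The 3 drug resistance genes were efflux pumps. ABCC1 was at 14.1 and 10.8 CPM against 29.0 and 18.9 CPM (0.93), ABCC2 was at 1.77 and 1.95 CPM against 2.57 and 2.40 CPM (0.41, adjusted p = 0.167), and ABCB1 was listed at 0 in the 4 libraries. Among the 9 ABC efflux transporters tested, the one called was ABCG2, which exports anthracyclines among other drugs: it was at 0.810 and 1.00 CPM with GFP and at 15.6 and 17.2 CPM with ZMYND8 (4.17).

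Death and p53 genes split. Of 27 p53 targets, 9 rose and 12 fell, with 2 called higher and 1 called lower. Besides PMAIP1, AEN, a nuclease of apoptosis, rose from 21.6 and 22.8 CPM to 99.2 and 95.2 CPM (2.13), and TP53I3, an oxidoreductase, was at 20 and 17.6 CPM against 5.13 and 6.21 CPM (-1.71). MDA-MB-231 cells are known to carry mutant p53. Of 15 genes of the BCL2 family, 7 rose and 7 fell. The survival genes BCL2 (5.17 and 6.59 CPM against 15.5 and 13.5 CPM, 1.3) and MCL1 (325 and 326 CPM against 672 and 690 CPM, 1.06) rose. The death factor BMF was at 56.1 and 60.2 CPM against 6.64 and 6.60 CPM (-3.13), opposite in direction to PMAIP1 of the same class.

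Genes of invasion were mostly lower. Of 31 matrix proteases and their inhibitors, 21 fell and 4 rose, with 14 called lower and 1 called higher and a median of -1.24. Within them, 11 of 15 metalloproteinases fell and 0 rose, with 8 called lower. MMP9, which cleaves basement membrane collagen, was at 3.65 and 3.32 CPM with GFP and at 0 and 0.0874 CPM with ZMYND8, a count ratio of 71.1 (95% counting interval 19.3 to 593). PLAT, MMP8 and SERPINA1 of this list were described above. The 1 member called higher, named after its values were seen, was SERPINB2, an inhibitor of plasminogen activators, at 0.709 and 0.790 CPM against 9.71 and 8.92 CPM (3.62). Of 28 genes of small GTPases, myosins and motility, 18 fell and 5 rose, against 29.5% and 28.7% of all genes tested. CEMIP, which breaks down hyaluronan, was at 216 and 214 CPM against 37.2 and 43.2 CPM (-2.41), RAC3 was at 24.6 and 24.8 CPM against 5.24 and 5.20 CPM (-2.24), and RHOJ fell by 1.98 on the log2 scale.

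The matrix itself was mixed. Of 48 collagens, laminins and integrins tested, 17 rose and 22 fell, with 4 called higher and 3 called lower. Over all genes tested, 28.7% rose and 29.5% fell, and 3.91% were called higher and 6.87% lower. The neighbouring collagen IV genes COL4A5 (15.6 and 12.6 CPM against 59.7 and 59.2 CPM, 2.07) and COL4A6 (0.354 and 0.685 CPM against 6.25 and 5.77 CPM, 3.52) rose. LAMA1, a laminin chain, was at 0.101 and 0.0527 CPM against 1.62 and 2.58 CPM, a count ratio of 27.8 (95% counting interval 9.22 to 138). ITGA1, a collagen receptor subunit, was at 99.5 and 94.0 CPM against 30.2 and 27.9 CPM (-1.74).

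Epithelial and mesenchymal genes were both more often lower than higher. Of 23 epithelial genes tested, 13 fell and 5 rose (7 called lower, 3 called higher, median -0.73), and of 19 mesenchymal genes, 10 fell and 6 rose (4 called lower, 0 called higher, median -0.36). CDH1, E-cadherin, was at 0.861 and 0.580 CPM with GFP and at 3.46 and 4.85 CPM with ZMYND8 (2.53). The tight junction genes CLDN3 (5.67 and 5.53 CPM against 0.558 and 0.918 CPM, -2.88) and CLDN1 (16 and 16.3 CPM against 3.07 and 3.54 CPM, -2.28) moved opposite to it. SPINT1, an epithelial protease inhibitor, was at 38.0 and 37.6 CPM against 4.46 and 4.55 CPM (-3.06). On the mesenchymal side, LOX, the collagen crosslinker, was at 147 and 145 CPM against 29.2 and 28.2 CPM (-2.35), and PDGFRB was at 15.1 and 16.9 CPM against 4.13 and 3.5 CPM (-2.07). Of 16 genes of breast subtype and line identity, 5 rose and 5 fell. The receptor kinase AXL was at 512 and 516 CPM against 980 and 1038 CPM (0.97), and the luminal factor SPDEF was at 7.95 and 7.38 CPM against 2.85 and 2.23 CPM (-1.60).

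Keratins, the filament proteins of epithelium, moved in both directions. Of 13 tested, 6 rose and 7 fell, with 5 called higher and 2 called lower. KRT14, the basal partner of KRT5, was at 0.101 and 0.211 CPM with GFP and at 3.57 and 4.59 CPM with ZMYND8 (4.68), and KRT16 was at 0.0506 and 0.632 CPM against 1.34 and 1.27 CPM (1.93). These lie beside KRT17 on chromosome 17 and share near-identical stretches with it, so reads may have been divided among them. KRT80 was at 216 and 216 CPM against 67.2 and 70.1 CPM (-1.65), and KRT19 was at 370 and 366 CPM against 186 and 180 CPM (-1.01).

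Signalling pathways lost and gained single members. Of 32 genes of the TGF-β and BMP pathway, 16 fell and 7 rose, with a median of -0.26. NOG, the BMP antagonist noggin, was at 199 and 191 CPM with GFP and at 22.2 and 22.4 CPM with ZMYND8 (-3.13). The ligand BMP2 was at 0.304 and 0.158 CPM against 1.34 and 2.10 CPM (2.88). The receptor ACVRL1 was at 2.58 and 3.06 CPM against 0.223 and 0.0437 CPM (-4.45). LTBP2, a matrix protein of the latent TGF-β binding protein family, was at 100 and 96.5 CPM against 22.5 and 20.6 CPM (-2.19). The BMP antagonist and the receptor were lower while the ligand was higher. Of 35 Wnt genes, 18 fell and 8 rose, with a median of -0.47. WNT5A, a ligand of the non-canonical branch, was at 1.72 and 1.05 CPM against 15.4 and 15.4 CPM (3.46), WNT11 was at 1.22 and 1.63 CPM against 0.112 and 0.219 CPM (-3.01), and the receptor FZD1 was at 49.3 and 46.9 CPM against 11.9 and 10.1 CPM (-2.14). Of 16 Notch genes, 8 fell and 1 rose. HEYL, a target, was at 5.57 and 4.11 CPM against 0.446 and 0.262 CPM (-3.79), and HES4, another, was at 14.9 and 16.5 CPM against 45.5 and 40.6 CPM (1.45).

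Of 45 receptor tyrosine kinases and their ligands, 21 rose and 13 fell, with 4 called higher and 6 called lower. The shares over all genes tested were 28.7% and 29.5%, and 3.91% and 6.87% for calls. The ligand EGF was at 0.152 and 0.316 CPM with GFP and at 1.62 and 1.22 CPM with ZMYND8 (2.57). The receptors EPHB3 (11.4 and 9.75 CPM against 1.28 and 1.88 CPM, -2.71), FGFR4 (3.24 and 4.90 CPM against 0.837 and 1.01 CPM, -2.12) and KDR, the main VEGF receptor (1.57 and 2.27 CPM against 0.669 and 0.219 CPM, -2.17), were lower. The groups did not overlap in any of the 4.

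Metabolic lists shifted by less. Of 25 genes of cholesterol synthesis and uptake, 19 fell and 1 rose, with a median of -0.37 and 2 called lower. ABCG1, a cholesterol exporter, was at 12.0 and 13.4 CPM with GFP and at 2.01 and 2.10 CPM with ZMYND8 (-2.62), and SQLE, an enzyme of synthesis, was at 57.1 and 56.5 CPM against 21.9 and 20.6 CPM (-1.42). Of 37 hypoxia and HIF target genes, 23 fell and 11 rose, with a median of -0.21. CA12, a carbonic anhydrase, was at 176 and 179 CPM against 7.48 and 9.79 CPM (-4.34), and ALDOC, a glycolytic aldolase, was at 39.7 and 40 CPM against 6.53 and 7.91 CPM (-2.45).

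The transcripts of the mitochondrial genome moved together. Of 13 respiratory subunit genes, 12 rose and 0 fell, with a median of 0.95, but the 2 ZMYND8 libraries stood far apart. Their summed level was 7713 and 8157 CPM with GFP and 11440 and 17945 CPM with ZMYND8. MT-ND4 was at 886 and 941 CPM against 1352 and 2372 CPM (1.03). Without the ZMYND8 library with the higher sum, 12 rose.

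Cancer-testis genes are silent in most adult tissues outside the testis. Of 39 listed, 17 were tested, 8 rose and 1 fell, with 5 called higher, and 6 of 9 X-linked ones rose with 0 falling. The X-linked count is to be read beside all 593 genes tested on the X chromosome, of which 53% rose and 14% fell. Whether the X-linked members rose more often than other genes of that chromosome was not tested. MAGEA6 was at 0.506 and 0.316 CPM with GFP and at 4.85 and 6.34 CPM with ZMYND8 (3.75), and MAGEA3 was at 0.962 and 0.685 CPM against 4.80 and 3.54 CPM (2.32). These 2 are near-identical in sequence. Of 14 HOX genes tested, 1 rose and 2 fell. Of 38 genes of neural adhesion and guidance, 7 rose and 13 fell. NTN4, a laminin-related netrin, was at 20.6 and 22 CPM against 116 and 112 CPM (2.42), opposite to NTN1. Of 32 ion channel genes, 4 rose and 7 fell, against 28.7% and 29.5% of all genes tested. The calcium-activated potassium channel KCNN4 was at 152 and 141 CPM against 36.5 and 36 CPM (-2.01).

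**Figure D4:**
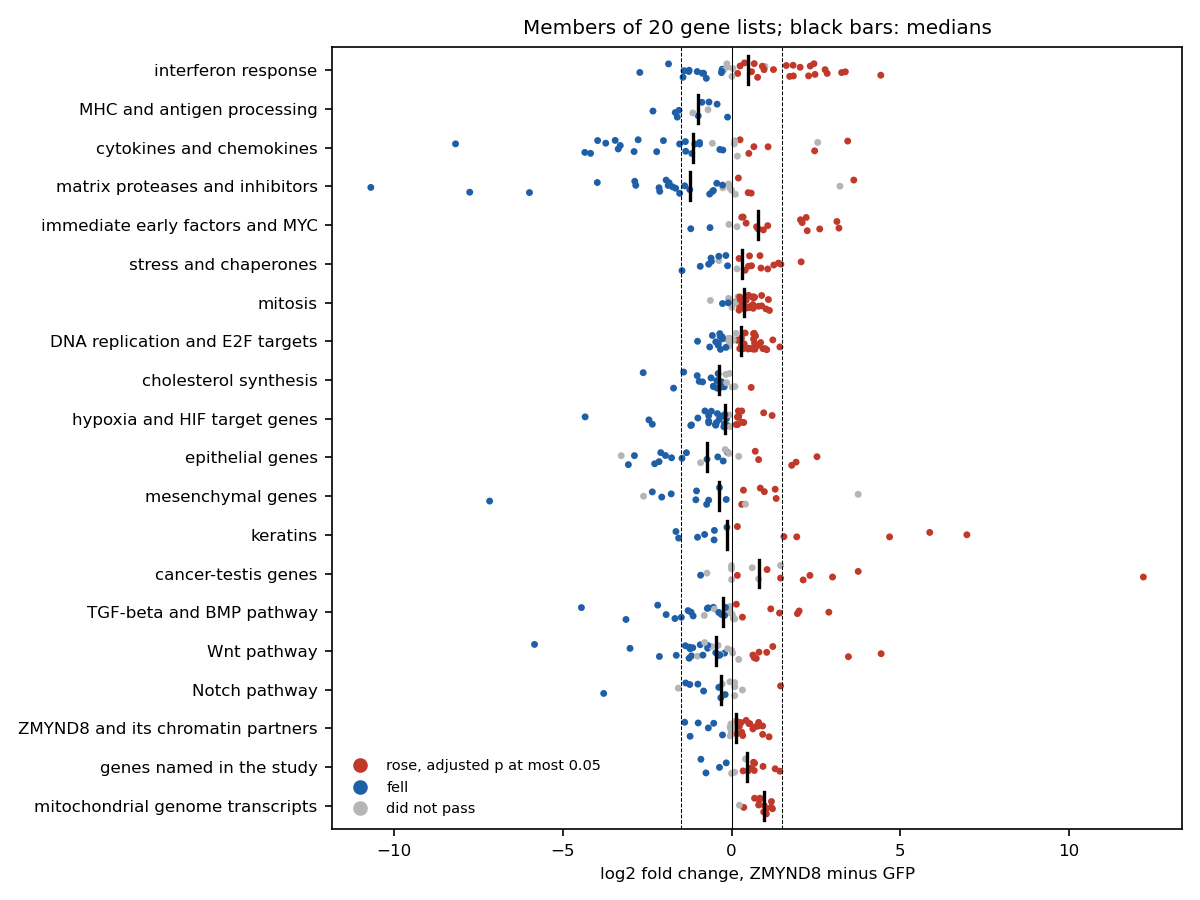
Log2 differences (ZMYND8 minus GFP, horizontal axis) of the tested members of 20 gene lists, 1 point per gene, red where it rose, blue where it fell and grey where it did not pass; black bars are medians and dashed lines the size asked of a call. Medians run from -1.24 for the matrix proteases and -1.13 for the cytokines to 0.79 for the immediate early genes and 0.95 for the mitochondrial transcripts, and points of genes at 0 in a group, such as BRDT at the far right, depend on the prior count.

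Called genes stood side by side in places. Runs of at least 4 tested neighbours called in the same direction numbered 10 and held 54 genes. Of the 10 runs, 8 were lower and 2 were higher. Some hold genes that overlap at 1 place, such as THBS1 with THBS1-IT1 and THBS1-AS1, which are not separate neighbours. How many runs would arise without any grouping was not computed. The longest was a run of 13 protocadherin β genes on chromosome 5 (141094578 to 141249365, GRCh38), which encode adhesion molecules of neurons. All 13 tested of 16 PCDHB genes were called lower, with log2 differences from -4.94 to -2.13 and a median of -2.72. The median was -2.42 after 6 h and -1.91 after 48 h of doxorubicin. The -4.94 was that of PCDHB8, which had few counts with ZMYND8 (0.0558 and 0.0874 CPM). Its count ratio was 33 (counting interval 11 to 163). PCDHB2 (0.81 and 1.0 CPM against 0.223 and 0.0874 CPM) and PCDHB15 (0.81 and 0.685 CPM against 0.0558 and 0.131 CPM) were also low. The filter can keep such a gene for its level in 1 line alone, so 13 of 13 is not independent of the filter. PCDHB16 was at 6.84 and 7.27 CPM with GFP and at 0.725 and 0.787 CPM with ZMYND8 (-3.21), and PCDHB14 was at 7.34 and 8.01 CPM against 1.00 and 1.71 CPM (-2.47). Their exons are alike, so reads may have been divided among them. Of the neighbouring γ cluster, 5 of 6 PCDHGA, 3 of 5 PCDHGB and 2 of 2 PCDHGC genes tested fell and 0 rose, and no PCDHA gene could be tested. The higher runs were KRT9, KRT14, KRT16 and KRT17 on chromosome 17, and 4 genes around IGFL1 on chromosome 19. The lower ones included the cystatin genes with CST1 on chromosome 20 (7.70 and 7.43 CPM against 1.06 and 1.57 CPM, -2.49), the stretch from NTF3 to CD9 on chromosome 12, where CD9, a tetraspanin, was at 356 and 348 CPM against 89.9 and 92.3 CPM (-1.95), and the stretch around THBS1 on chromosome 15.

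Whole chromosomes differed in their balance. On the X chromosome, 57 of 593 genes tested (9.61%) were called higher and 21 (3.54%) lower, with a median of 0.42, which was 0.48 and 0.54 after 6 and 48 h of doxorubicin. On chromosome 14, 16 of 618 (2.59%) were called higher and 65 (10.5%) lower, with a median of -0.28, then -0.29 and -0.36. The medians of chromosomes 13 (0.29) and 7 (0.20) were above 0 at all 3 times as well. The lines are the same at the 3 times, so these medians are not independent of each other.

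**Figure D5:**
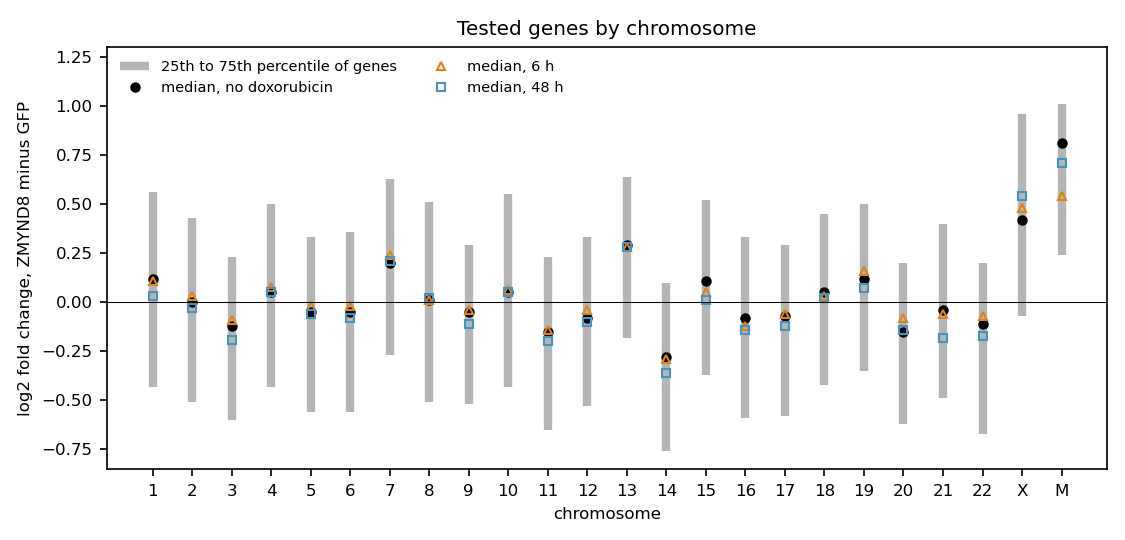
Log2 differences (ZMYND8 minus GFP) of the genes tested on each chromosome, with the median and the middle 50% of the genes, without doxorubicin and after 6 and 48 h of it. The X chromosome has a median of 0.42 and chromosome 14 one of -0.28 without doxorubicin, and both keep their side of 0 at the other times.

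By gene class, 3.13% of 14048 protein-coding genes were called higher and 6.86% lower, and of 3377 long non-coding RNAs 5.98% were called higher and 8.17% lower. Among 1105 pseudogenes, 5.97% were called higher and 3.08% lower. Promoter windows of called genes were poorer in CpG: the median ratio of observed to expected CpG was 0.63 for 399 genes called higher and 0.66 for 814 called lower, against 0.82 for all 12577 tested genes with a window. Their median GC content was 61.3% and 63.3%, against 65.0%.

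The same 2 lines were compared again under doxorubicin, in other libraries. After 6 h, 701 genes (3.73%) were called higher and 1172 (6.23%) lower, and after 48 h 685 (3.64%) and 1057 (5.62%). Of the 736 genes called higher without the drug, 441 (59.9%) were called higher after 6 h and 358 (48.6%) after 48 h, and of the 1292 called lower, 836 (64.7%) and 671 (51.9%) were called lower. Genes called in the same direction at all 3 times numbered 284 higher and 556 lower. Called in the opposite direction were 2 higher and 0 lower genes after 6 h, and 2 and 4 after 48 h. The median log2 difference of the genes called higher went from 2.24 to 1.92 and 1.48, and that of the genes called lower from -2.31 to -1.99 and -1.59. These later medians come from libraries that did not choose the genes.

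A test of the difference between the times, by an interaction term, passed for 195 of the 2028 called genes (9.62%) at 6 h and for 644 (31.8%) at 48 h, against 13.4% and 28.6% of all genes tested. The called genes were chosen in libraries that this term also uses. At 48 h, 220 of 233 higher and 389 of 411 lower genes that passed had a smaller difference than without the drug. The levels behind some of these are given here without a test between times within a line. BRDT, at 0 in the GFP libraries without the drug and after 6 h, was at 0.976 and 0.630 CPM there after 48 h, against 21.1 and 22.4 CPM with ZMYND8. MMP8 was at 2.44 and 1.89 CPM with GFP after 48 h, below its 9.47 and 10.2 CPM without the drug, against 0.325 and 0.510 CPM with ZMYND8. RSAD2 was at 11.5 and 11.3 CPM with GFP and at 49.8 and 49.7 CPM with ZMYND8. KRT17 was at 27 and 24.9 CPM with GFP and at 663 and 651 CPM with ZMYND8, above its levels without the drug in both lines. In all 4 genes the ZMYND8 libraries still stood apart from the GFP libraries at 48 h. MIR30A was at 0 in the ZMYND8 libraries at both later times, against 30.7 and 32.8 CPM with GFP after 6 h and 22.7 and 23.7 CPM after 48 h.

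The control cells of the transient experiment give a further level for each gene, from 5858550 and 5904185 counts in a separately counted table, with no test between tables. Of the called genes that could be set beside it, 249 of 331 called higher (75.2%) had a control level nearer to the GFP line, and so did 336 of 606 called lower (55.4%). The other 82 (24.8%) and 270 (44.6%) had a control level nearer to the ZMYND8 line. SPARC, for example, was at 5.46 and 3.22 CPM in the control cells, and SERPINA1 was at 3.07 and 3.90 CPM, both near the ZMYND8 line, while PLAT was at 196 and 135 CPM, between the 2 lines. BRDT was at 0 in the control cells, as in the GFP line.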

How the data were processed

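The deposited values were whole-number read counts per gene, which the authors made from poly(A) RNA libraries with featureCounts 1.6.4 (file header), counting read pairs in reverse-stranded mode against GENCODE 31 on hg38. The submitters' processing notes also name Trim Galore, HISAT2 and DESeq2. The study's methods name TopHat and cuffdiff, and which alignments were counted is not stated. Depth ran from 18300628 to 23724398 counts in the 12 inducible libraries. Intervals of count ratios cover counting error only.

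Here 60603 genes were read, 18801 passed filterByExpr, and edgeR 4.0.16 (R 4.3.3) fitted quasi-likelihood models with TMM scaling and 1 mean per condition over the 12 libraries, with Benjamini-Hochberg adjustment over all genes tested. Called means a log2 difference of at least 1.5 at an adjusted p of at most 0.05. The fit was tested on simulated counts. Symbols came from GENCODE 44. DESeq2 1.42.0 served as an alternative.

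Lists, members and the rule for named genes were chosen with earlier results of these data known. Named were ZMYND8, the 10 largest rises and 10 largest falls among called genes with a symbol and at least 5 CPM in the higher group, the 8 largest gains and 8 largest losses in CPM, up to 4 members of each list with the largest change that passed and at least 1 CPM in a group, the genes the study follows by name, and runs of at least 4 called neighbours. The 10 largest rises and 10 largest falls were also required not to overlap between the 2 groups. Fitted differences of genes at or near 0 counts in a group depend on the prior count of the fit, left at the edgeR default. They are given as bounds or count ratios instead. A few genes that the rule names are not reported here.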

Additional observations from a re-analysis of the deposited data

Results flagged for a closer look

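Among the named genes, those whose ZMYND8 minus GFP difference changed with doxorubicin by at least 1.5 on the log2 scale at an adjusted p of at most 0.05 (interaction term, edgeR) are listed here. They were chosen in libraries that the term also uses, and values of genes with libraries at 0 depend on the prior count. A positive value means that the difference was higher under the drug than without it.

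At 6 h there were 5, of which 4 had a smaller difference than without the drug. The change was -1.81 for KRT17, -1.87 for SPARC, 1.71 for IL1B and -3.58 for LAMA1, and it was 6.66 for POU2F2-AS2. SPARC was the one whose difference was larger.

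At 48 h, 34 genes are reported here, and each of these 34 had a smaller difference. Among genes higher in the ZMYND8 line, the keratin and stress genes KRT17 (-2.30) and HSPA6 (-1.91) shrank, as did the germ line gene BRDT (-7.45), the interferon-induced RSAD2 (-2.30), the drug exporter ABCG2 (-2.36) and the non-coding UCA1 (-1.76). So did AMPH (-3.54), ABCC9 (-2.15), SLC4A4 (-2.10), MCM10 (-1.58), CDH1 (-1.57), LAMA1 (-3.88), COL4A6 (-1.80), EGF (-2.13), EGR2 (-1.5), ROBO2 (-2.27) and IGFL2-AS1 (-2.19).

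Among genes lower in the ZMYND8 line, the inflammatory genes CCL2 (5.96), CXCL8 (1.63) and IL1B (2.23) and the proteases MMP8 (8.33) and MMP9 (4.74) had smaller differences. The same held for NTN1 (5.43), POU2F2-AS2 (5.54), NYNRIN (3.35), SERPINA5 (3.05), NTM (3.57), ADGRF1 (1.5), CLDN1 (1.64), KCNMA1 (1.53), LINC02915 (4.81), THBS1-IT1 (2.65), CST4 (2.58) and LTF (1.96).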

How the results depend on the processing

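The counts of called genes (736 higher, 1292 lower, 1277 in the same direction at 6 h, 1029 at 48 h, and 644 with a changed difference at 48 h) stayed within 1.5 times in 56 of 67 recomputed values. With at least 10 counts asked of every library, which leaves 13783 genes, they were 232, 531, 512, 377 and 412. With a log2 cutoff of 1 they were 1285, 2060, 2120, 1894 and 1097. DESeq2 gave 408 for the last of them. Leaving out 1 library at a time gave 675 to 726, 1212 to 1290, 1183 to 1261, 932 to 997 and 531 to 589. Equal replicate numbers did not pair the samples (correlations of their deviations from -0.0458 to 0.0216), and the replicate block gave 724, 1281, 1261, 1027 and 626. With the 4 libraries alone, 585 and 1062 genes were called higher and lower. Of 209 named genes, 206 passed the test and 12 lost it in at least 1 alternative (BRD2, POLA2, KRT16, HOXD3, CDKN1C, VIM, TSPAN18, VWF, LRRC2, LRRC2-AS1, PCDHB6 and 1 gene without a symbol), and 0 changed direction. Other scalings moved the median of all genes by at most 0.0374, and no list's median changed sign under them. Of the counts of list members that rose or fell, 688 stayed within 1.5 times and 38 did not, and with at least 10 counts in every library, 13 matrix proteases and inhibitors fell instead of 21, and 3 keratins, 3 epithelial and 3 cancer-testis genes rose instead of 6, 5 and 8. Of the genes called higher and lower, 68 and 76 had no count in the lower group, where depth sets the size that can be shown. With 2 libraries per group of 1 line each, line and cDNA cannot be told apart.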
